A study of Mus musculus with 30 samples.

Results

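The glycolysis genes described here were 10 genes chosen by name: Slc2a1, Hk2, Pfkl, Aldoa, Gapdh, Pgk1, Eno1, Pkm, Ldha and Hif1a. They were looked up by gene symbol in the deposited table of 14225 transcripts (13483 gene symbols). Of the 10 genes, 9 had a row, and Hif1a was not analysed here. Because Aldoa and Pkm each had 2 transcripts in the table and the other 7 genes 1, the 9 genes gave 11 rows. In RefSeq on GRCm38.p6, Slc2a1 lies at chr4:119108745-119137330, Hk2 at chr6:82725025-82774454, Pfkl at chr10:77986947-78009807, Aldoa at chr7:126795234-126800994 and Gapdh at chr6:125161852-125166467. Pgk1 lies at chrX:106187100-106203699, Eno1 at chr4:150236708-150248879, Pkm at chr9:59656576-59679372 and Ldha at chr7:46842274-46855627.

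Glycolysis splits glucose into pyruvate in the cytosol and yields ATP without oxygen. Glucose enters through carriers such as GLUT1 (Slc2a1), is trapped by hexokinase (Hk2), committed by phosphofructokinase (Pfkl) and split by aldolase (Aldoa). The later enzymes, from glyceraldehyde-3-phosphate dehydrogenase (Gapdh) through phosphoglycerate kinase (Pgk1) and enolase (Eno1) to pyruvate kinase (Pkm), recover ATP and NADH, and lactate dehydrogenase (Ldha) turns pyruvate into lactate. Microglia, the resident macrophages of the brain, are known to raise glycolysis when activated, and dividing cells typically have high levels of glycolytic enzymes.

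Messenger RNA was measured in 30 libraries of CD11b bead-isolated microglia from whole brains of C57BL/6J mice, 3 libraries for each of 10 groups. The dams had received saline (Saline) or the viral mimetic poly(I:C) during gestation (maternal immune activation, MIA). Saline and MIA offspring were taken at E17, P7 and P20. At P60, offspring of both kinds of dam had been kept on control chow (CTRL) or had received chow with PLX5622 after weaning and control chow thereafter (MG-REP), which gave the groups P60 Saline_CTRL, P60 MIA_CTRL, P60 Saline_MG-REP and P60 MIA_MG-REP. PLX5622 inhibits CSF1R, the receptor that microglia need to survive, so that the microglia of MG-REP mice were depleted and then repopulated the brain. At E17 the brains of a litter were pooled for 1 library, P7 libraries came from pools of 3 brains, and a single brain was used at P20 and P60, with both sexes included. CD11b is also carried by border macrophages, monocytes and neutrophils, and the bead isolation does not separate these from microglia. The study asked how MIA changes the microglial transcriptome over development and whether repopulation corrects it.

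Apart from their first and last exons, the 2 Pkm transcripts differ in 1 exon, of which each transcript takes 1 of 2 versions. NM_001253883 carries the exon of pyruvate kinase M1, the form of some differentiated tissues. NM_011099 carries that of pyruvate kinase M2, which is found in embryonic and dividing cells and in macrophages, among others. The exons are shown because the results below differ between these rows. Both exons are exon 9 of 11 in their transcript, 167 bases long and on the + strand of chromosome 9 (GRCm38, GENCODE transcripts matched to the RefSeq identifiers), within the coding part of the Pkm gene. The M1 exon lies at chr9:59675029-59675195 and the M2 exon at chr9:59675568-59675734. Capitals mark the 64 bases at which the exons differ (61.7% of positions are identical).
Pkm M1 exon (NM_001253883): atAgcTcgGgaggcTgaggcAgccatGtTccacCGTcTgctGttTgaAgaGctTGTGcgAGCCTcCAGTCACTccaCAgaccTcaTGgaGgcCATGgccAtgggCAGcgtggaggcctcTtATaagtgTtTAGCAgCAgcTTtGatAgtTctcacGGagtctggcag
Pkm M2 exon (NM_011099): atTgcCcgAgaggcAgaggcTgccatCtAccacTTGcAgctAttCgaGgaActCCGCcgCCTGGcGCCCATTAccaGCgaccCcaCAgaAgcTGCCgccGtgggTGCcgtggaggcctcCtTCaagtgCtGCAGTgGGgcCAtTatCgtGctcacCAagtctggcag
No stretch of 40 bases, the length of a read, was the same in both exons.

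The promoters of Gapdh, Pgk1 and Slc2a1 are shown because Gapdh and Pgk1 changed in the same direction in most comparisons below and Slc2a1 did not. Each is the 250 bases before the first start listed for the gene in a table of RefSeq promoters (GRCm38.p6), 5′ to 3′ on the strand of the gene. The start listed for Gapdh lies inside the interval of the gene given above, so that its 250 bases do too. Capitals mark ACGTG and GCGTG, the core letters bound by hypoxia-inducible factors, on either strand. The Gapdh promoter lies on the minus strand at chr6:125165774-125166023, the Pgk1 promoter on the plus strand at chrX:106186850-106187099 and the Slc2a1 promoter on the plus strand at chr4:119108495-119108744.
Gapdh: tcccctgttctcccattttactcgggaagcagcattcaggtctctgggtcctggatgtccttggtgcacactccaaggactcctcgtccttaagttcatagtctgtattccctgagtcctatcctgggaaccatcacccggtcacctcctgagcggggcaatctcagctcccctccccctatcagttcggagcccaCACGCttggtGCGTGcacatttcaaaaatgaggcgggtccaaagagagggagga
Pgk1: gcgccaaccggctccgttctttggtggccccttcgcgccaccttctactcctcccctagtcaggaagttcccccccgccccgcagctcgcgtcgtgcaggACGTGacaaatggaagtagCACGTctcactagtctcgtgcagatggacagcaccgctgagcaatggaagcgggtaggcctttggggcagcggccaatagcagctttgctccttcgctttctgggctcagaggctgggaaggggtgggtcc
Slc2a1: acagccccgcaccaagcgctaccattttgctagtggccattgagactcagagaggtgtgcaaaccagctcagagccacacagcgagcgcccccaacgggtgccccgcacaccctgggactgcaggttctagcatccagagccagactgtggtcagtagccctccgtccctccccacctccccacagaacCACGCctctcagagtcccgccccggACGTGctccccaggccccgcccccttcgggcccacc
Gapdh held 2 matches of GCGTG, Pgk1 2 of ACGTG and Slc2a1 1 of each. Of 32851 annotated promoters of this length, 16.6% held ACGTG, 28.2% GCGTG and 38.6% either. A match describes letters and is not a bound site.

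The deposited values were TPM (transcript abundance), which are scaled by transcript length and summed to 995495 to 998012 per library. Steps between low TPM gave an estimated 7980000 to 12790000 reads per library, and only 68.7% to 78.8% of low values lay within 0.2 of a whole read. The estimated reads behind a value therefore differed widely between genes, with a median over libraries of 11203 for Slc2a1, 270 for Gapdh, 292 for Pkm M2 and 13 for Ldha. Summed TPM of 8 microglial markers was 16514 to 51828 over the 30 libraries, and in every library exceeded that of each list of markers of other cells. In E17 MIA replicate 3, however, choroid plexus markers summed to 12249 and endothelial markers to 4944, and neutrophil and monocyte markers to 5095 in P60 Saline_MG-REP replicate 2. Choroid plexus markers also summed to 10047 and 10080 in P7 MIA replicates 2 and 3, and to 7130 and 6633 in P20 Saline replicates 2 and 3. Endothelial markers were at 3558 in P7 MIA replicate 3, and neuron markers at 1207 in E17 MIA replicate 1. The labels give no sex. Xist was high and Y-linked genes low in all 3 libraries of each MG-REP group but in 1 of 3 in each CTRL group, so that this difference and that between MG-REP and CTRL are in part the same. It was so in all 3 libraries of each P20 group too, beside 0 of 3 in each E17 group and in P7 Saline and 1 of 3 in P7 MIA, which are pools of brains, so that the comparisons of P20 with P7 and with P60 also differ in this. Nothing ties libraries to separate litters at P20 and P60, and p-values then measure the spread between these libraries.

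Slc2a1 had by far the highest level of the 11 rows, and the 3 genes of glucose entry and commitment ranked above all later enzymes. The part of endothelial RNA in the Slc2a1 level was not tested. On the TPM scale the mean over 30 libraries was 976 for Slc2a1, 184 for Hk2 and 154 for Pfkl. Their means lay above those of 99.3%, 93.4% and 91.7% of all rows in the table. Gapdh (59.9), Pkm M2 (45.6) and Pgk1 (44.0) followed, then Pkm M1 (13.4). Aldoa NM_001177307 (3.70), Eno1 (2.96), Ldha (2.06) and Aldoa NM_001177308 (1.76) were low. For Ldha only NM_001136069 had a row, and NM_010699 had none, so that the level of the whole gene is not known. Neighbours in this order overlapped widely, with Hk2 from 101 to 292 TPM and Pfkl from 51.0 to 250 TPM.

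The low rows share sequence with many other genes or transcripts, and how reads matching several places were counted is not given in the sources used here. Stretches of 40 bases were compared with other GENCODE genes and with other transcripts of the gene that GENCODE matches to a RefSeq mRNA. Of all stretches, 98.0% of Slc2a1, 100% of Hk2 and 99.7% of Pfkl occurred in neither. The share was 31.9% for Pgk1, 25.2% for Eno1, 17.8% for Pkm M2, 17.2% for Ldha, 14.3% for Gapdh, 12.5% for Aldoa NM_001177307 and 3.20% for Pkm M1. Gapdh stretches occurred in 275 other genes. RefSeq gives 2 mRNAs for Pfkl, 3 for Eno1 and 9 for Pkm. Not all of these were matched, so that the shares of these 3 genes can be too high. The levels of the later enzymes against those of Slc2a1, Hk2 and Pfkl are therefore uncertain. Comparisons across groups set 1 row against itself. Reads of other genes or transcripts can still enter such a row, and their part in its changes was not tested.

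**Figure D1:**
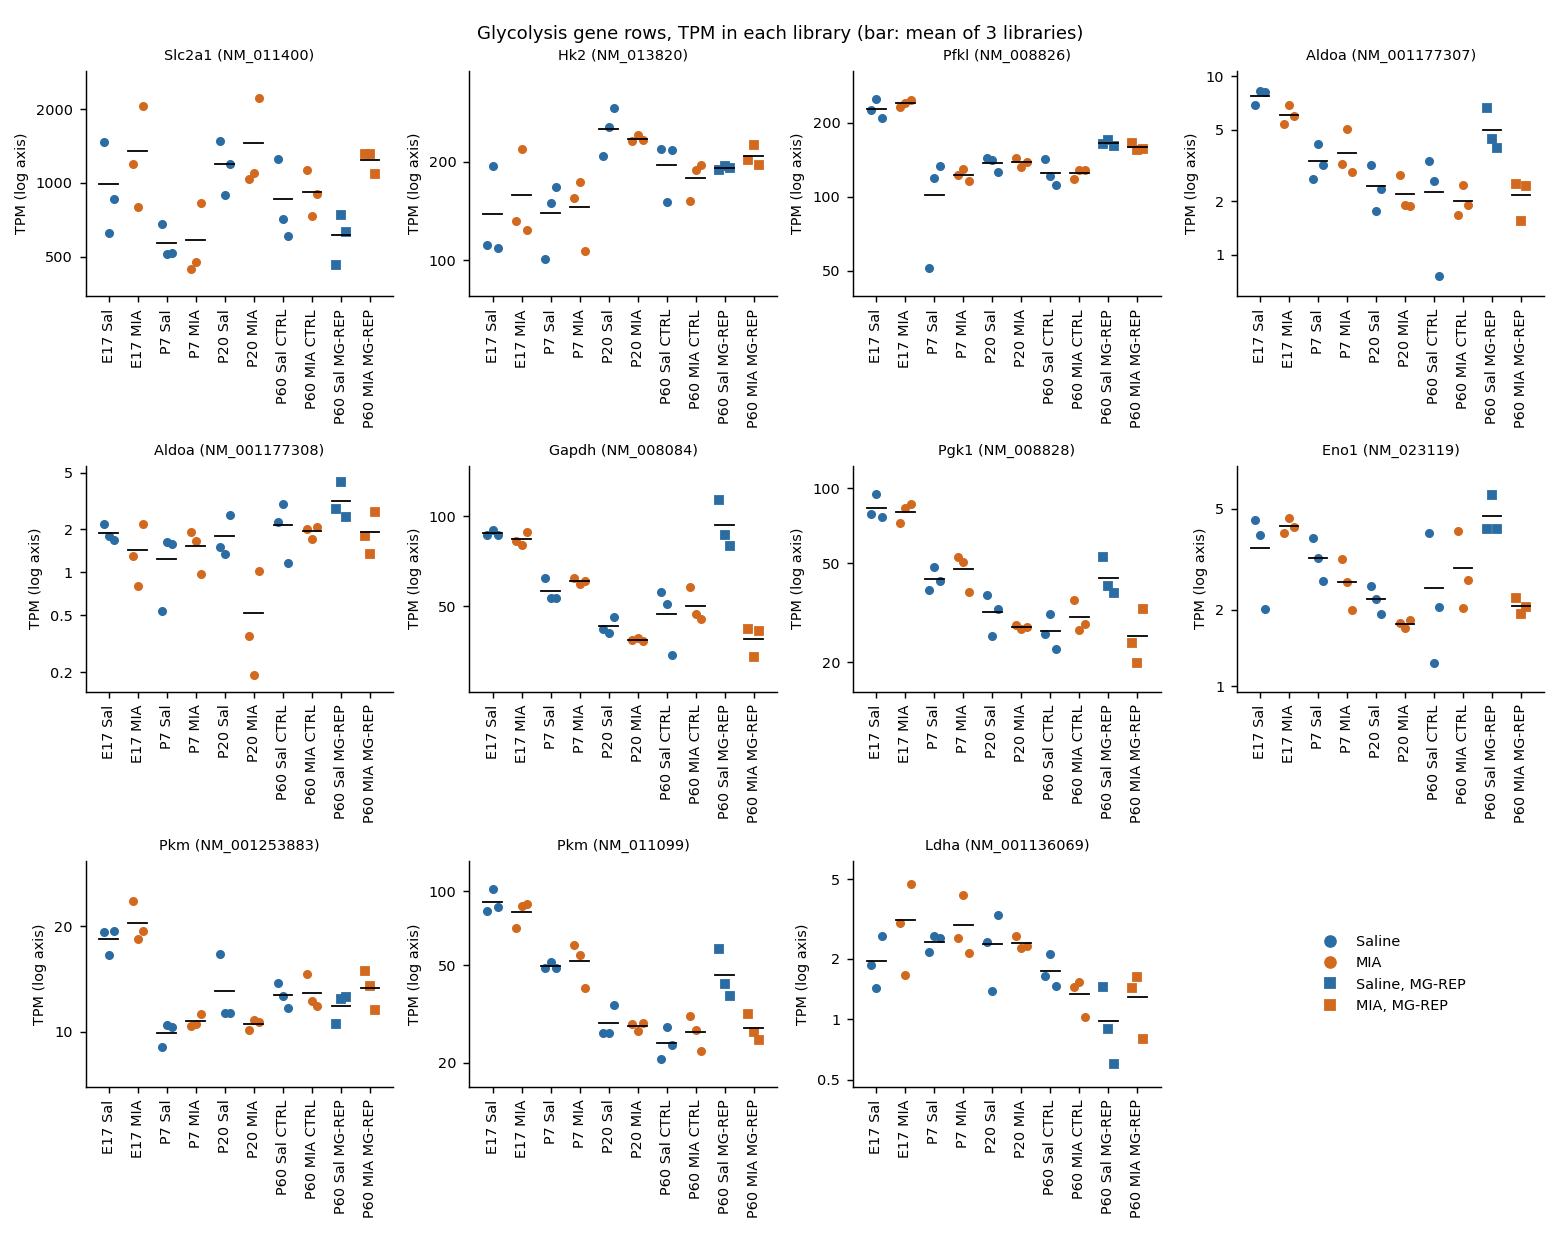
TPM (log axis) of each of the 11 rows in each of 30 libraries, by group, with a bar at the mean of 3 libraries. Gapdh, Pgk1 and Pkm NM_011099 decline from E17 to P60 and are higher in P60 Saline_MG-REP (Gapdh 79.5 to 113 TPM) than in P60 MIA_MG-REP (33.8 to 42.1 TPM), whereas Slc2a1 and Hk2 have no such decline.

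The next comparison asked how the genes changed over development. In Saline microglia 6 of 11 rows fell from E17 to P60, namely Pfkl, Aldoa NM_001177307, Gapdh, Pgk1 and both Pkm rows, with the largest log2 fold change in Pkm M2. Over the 3 replicates of a group, given in order here and below, Pkm M2 was at 83.1, 102 and 86.2 TPM at E17, at 48.5, 51.3 and 48.5 at P7, at 26.4, 26.4 and 34.5 at P20 and at 20.7, 28.1 and 23.5 in P60 Saline_CTRL. Each age lay below the one before it, except that P20 and P60 overlapped. The mean was 3.76-fold lower at P60 than at E17 (log2 −1.87 ± 0.17 SE, adjusted p = 3.87e-09, limma). Here and below, log2 values compare the group means of log2(TPM + 1) in 1 limma fit of all 30 libraries, with p-values adjusted by Benjamini-Hochberg over 14225 rows and called under 0.05.

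Pgk1, which makes the first ATP of the pathway, and Gapdh, which makes its NADH, were likewise highest at E17. Pgk1 was at 79.0, 94.5 and 76.7 TPM at E17, at 39.1, 48.2 and 42.6 at P7, at 37.4, 25.5 and 32.9 at P20 and at 26.1, 31.4 and 22.6 at P60. It was 3.12-fold lower at P60 than at E17 (log2 −1.61 ± 0.18, adjusted p = 8.41e-08, limma). Gapdh was at 86.6, 90.0 and 86.8 TPM at E17, at 62.0, 53.4 and 53.2 at P7, at 42.0, 40.8 and 46.1 at P20 and at 55.7, 50.9 and 34.5 at P60. The E17 libraries lay above all others, and P20 and P60 overlapped. Gapdh was 1.87-fold lower at P60 than at E17 (log2 −0.91 ± 0.14, adjusted p = 1.03e-05).

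Pfkl, the commitment step, fell early and did not fall further. It was at 226, 250 and 208 TPM at E17, at 51.0, 119 and 134 at P7, at 143, 140 and 126 at P20 and at 142, 121 and 111 at P60. On the log2 scale it fell by 1.28 ± 0.20 from E17 to P7 (adjusted p = 0.0004, limma) and by 0.87 ± 0.20 from E17 to P60 (adjusted p = 0.000796). The fall to P7 was 0.85 without P7 Saline replicate 1, the lowest library, and still called, whereas a fit of only the groups compared did not call it (adjusted p = 0.0824). It rose by 0.54 ± 0.20 from P7 to P20 (adjusted p = 0.0338), a rise that was 0.11 without P7 Saline replicate 1 (adjusted p = 0.405) and not called without P20 Saline replicate 1 (0.51) or 2 (0.52) either. Aldoa NM_001177307 was at 6.92, 8.26 and 8.18 TPM at E17 and at 3.37, 2.60 and 0.76 at P60 (log2 −1.53 ± 0.27, adjusted p = 4.91e-05), on an estimated 5 to 59 reads per library. Pkm M1 was at 19.3, 16.6 and 19.4 TPM at E17 and at 13.8, 12.7 and 11.7 at P60 (log2 −0.50 ± 0.15, adjusted p = 0.00762).

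The genes of glucose entry did not follow this order. Hk2, which phosphorylates glucose, was at 111, 194 and 109 TPM at E17, at 101, 150 and 167 at P7, at 208, 255 and 292 at P20 and at 218, 151 and 217 at P60. The P20 libraries lay above those of E17 and P7, and Hk2 rose from P7 to P20 by 0.87 ± 0.23 on the log2 scale (adjusted p = 0.00505, limma). Slc2a1, the glucose carrier, was at 1476, 622 and 863 TPM at E17, at 680, 511 and 515 at P7, at 1485, 891 and 1197 at P20 and at 1249, 712 and 607 at P60. It rose from P7 to P20 by 1.05 ± 0.36 (adjusted p = 0.0249), but the call was lost without P7 Saline replicate 2 (0.98) or 3 (0.98) or without P20 Saline replicate 1 (0.87) or 3 (1.03). Endothelial markers summed to 3211, 984 and 1939 TPM at E17 and to 2161, 2269 and 2262 at P7. They summed to 1492, 769 and 1147 TPM at P20 and to 1921, 1790 and 1155 at P60. Their part in the Slc2a1 values was not tested. Eno1 (1.24 to 4.52 TPM), Ldha (1.38 to 3.31 TPM) and Aldoa NM_001177308 (0.54 to 3.01 TPM) in these 4 groups passed no test, each on few reads.

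Of the 11 rows, 6 fell and 0 rose from E17 to P7 in Saline microglia, against 1.23% lower and 3.09% higher of all rows. From P7 to P20, 3 rose (16.1% of all rows) and 2 fell (20.1%), and from P20 to P60 0 were called (3.51% of all rows in either direction, and 0 of 11 at an unadjusted p under 0.05). From E17 to P60, 6 fell (25.4%) and 0 rose (22.1%), with a median log2 fold change of −0.50 beside −0.01 over all rows. The comparisons of neighbouring ages share libraries and are not independent. In bulk libraries such as these, fewer cells of a type and less RNA per cell cannot be told apart. The proliferation markers (8 of 10 genes with a row) had a summed TPM of 853 to 1005 at E17 and P7 and of 15.5 to 37.7 at P20 and in the CTRL groups, with 8 of 8 lower at P60 than at E17, and their part in the fall of the glycolysis genes was not tested. Summed microglial markers were at 22671 to 28737 TPM at E17 Saline and at 35859 to 51828 TPM in P60 Saline_CTRL, with 7 of 8 higher and 1 lower.

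MIA microglia gave a like course, with 7 rows lower at P60 than at E17. Pkm M2 was at 70.8, 87.4 and 88.7 TPM at E17 MIA and at 31.0, 27.1 and 22.3 in P60 MIA_CTRL (log2 −1.59 ± 0.17, adjusted p = 5.15e-08, limma). Pgk1 fell by 1.38 ± 0.18 (adjusted p = 8.09e-07) and Gapdh by 0.73 ± 0.14 (adjusted p = 0.000148) on the same scale. In addition Ldha, which was at 3.02, 1.67 and 4.73 TPM at E17 MIA and at 1.45, 1.53 and 1.03 in P60 MIA_CTRL, passed the test (log2 −0.76 ± 0.25, adjusted p = 0.0156), but not without E17 MIA replicate 3 (−0.49, adjusted p = 0.131), the library with the most choroid plexus RNA, without P60 MIA_CTRL replicate 3 (−0.66, adjusted p = 0.0645) or in a fit of only the groups compared (adjusted p = 0.102). From E17 to P7, 4 of 11 rows fell (0.801% of all rows) and 0 rose (1.59%), from P7 to P20 2 rose (13.1%) and 4 fell (22.5%), from P20 to P60 0 were called (2.6%), and from E17 to P60 7 fell (28.8%) and 0 rose (19.3%). The count from E17 to P7 was 2 without E17 MIA replicate 3. The difference between the courses of Saline and MIA microglia was not tested.

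MIA and Saline microglia were compared at each age. At E17, P7, P20 and P60 CTRL, 0 of 11 rows passed the test between MIA and Saline microglia, and 0 of all 14225 rows were called (0%, limma). At an unadjusted p under 0.05, 0, 0, 1 and 0 of the 11 rows passed, beside 585, 335, 457 and 256 of all rows. The 1 row was Aldoa NM_001177308 at P20, with 1.51, 1.34 and 2.54 TPM in Saline and 0.36, 0.19 and 1.02 in MIA microglia, on an estimated 1 to 23 reads over all libraries. At P20, 4 of 11 rows were lower in MIA microglia with no overlap between the groups (6.23% of all rows) and 0 higher (3.46%). Beside Aldoa NM_001177308 these were Gapdh, Eno1 and Pkm M1. Gapdh was at 42.0, 40.8 and 46.1 TPM in Saline and at 38.7, 39.1 and 38.4 in MIA microglia (log2 −0.15 ± 0.14). Eno1 was at 2.48, 2.20 and 1.93 TPM and at 1.77, 1.70 and 1.82 TPM, and Pkm M1 at 16.7, 11.4 and 11.3 TPM and at 10.1, 10.9 and 10.7 TPM. None of these was called, with or without the replicate number as a block. Gapdh in P60 CTRL mice was at 47.0 ± 11.1 TPM (SD, n = 3) in Saline and 50.2 ± 6.88 in MIA microglia, and Pkm M2 at 24.1 ± 3.72 and 26.8 ± 4.34, so that the difference was below the spread of the libraries. Slc2a1 was at 856 ± 344 and 922 ± 199 TPM. With 3 libraries per group, small differences can be missed, and the size that could be detected was not tested.

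Repopulated microglia of Saline offspring had higher levels of the later enzymes than control-chow microglia at P60. Gapdh had the largest log2 fold change of TPM + 1, although the low row Aldoa NM_001177307 rose more in mean TPM (2.23-fold). Gapdh was at 55.7, 50.9 and 34.5 TPM in P60 Saline_CTRL and at 113, 86.7 and 79.5 in P60 Saline_MG-REP, with no overlap. The means differed by 1.98-fold (log2 0.98 ± 0.14, adjusted p = 8.69e-06, limma), and the P60 Saline_MG-REP mean of 93.1 ± 17.7 TPM was the highest of the 10 groups and overlapped that of E17 Saline (87.8 ± 1.88 TPM).

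The Pkm M2 row (NM_011099) rose as well. Pkm M2 was at 20.7, 28.1 and 23.5 TPM in P60 Saline_CTRL and at 58.0, 41.9 and 37.2 in P60 Saline_MG-REP, with no overlap (1.90-fold, log2 0.88 ± 0.17, adjusted p = 0.000275, limma). Pkm M1 was at 12.7 ± 1.07 TPM and 11.8 ± 1.16 TPM (SD, n = 3) and was not called. Pgk1 was at 26.1, 31.4 and 22.6 TPM in P60 Saline_CTRL and at 52.8, 40.4 and 37.9 in P60 Saline_MG-REP, again with no overlap (1.64-fold, log2 0.69 ± 0.18, adjusted p = 0.00469). The P60 Saline_MG-REP means of Pkm M2 (45.7 ± 10.9 TPM) and Pgk1 (43.7 ± 7.94 TPM) were close to those of P7 Saline (49.4 ± 1.63 and 43.3 ± 4.61 TPM).

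Eno1 and Aldoa NM_001177307 rose on few reads. Eno1, which makes phosphoenolpyruvate, was at 4.02, 1.24 and 2.05 TPM in P60 Saline_CTRL and at 4.17, 5.67 and 4.16 in P60 Saline_MG-REP (log2 0.79 ± 0.25, adjusted p = 0.0187, limma). Its call was lost without P60 Saline_CTRL replicate 2 (0.52), P60 Saline_CTRL replicate 3 (0.75) or P60 Saline_MG-REP replicate 2 (0.67). Aldoa NM_001177307 was at 3.37, 2.60 and 0.76 TPM and at 6.62, 4.46 and 3.96 TPM (log2 0.97 ± 0.27, adjusted p = 0.00844), and was not called without P60 Saline_CTRL replicate 3 (0.58) or P60 Saline_MG-REP replicate 1 (0.78).

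The rows of Slc2a1, Hk2 and Ldha did not rise with the later enzymes. Slc2a1 was at 1249, 712 and 607 TPM in P60 Saline_CTRL and at 460, 741 and 633 in P60 Saline_MG-REP, with overlap. Hk2 was at 195 ± 38.7 and 191 ± 2.42 TPM (SD, n = 3), with overlap. Ldha was at 1.74 ± 0.337 and 0.983 ± 0.431 TPM, 1.77-fold lower and without overlap, but not called (adjusted p = 0.172, limma). Its row, NM_001136069, rests on an estimated 4 to 40 reads per library, and the other Ldha mRNA of RefSeq (NM_010699) had no row. Pfkl was at 142, 121 and 111 TPM and at 164, 170 and 161 TPM, without overlap but not called (adjusted p = 0.135, limma). In all, 5 of 11 rows rose (11.9% of all rows) and 0 fell (14.9%), with a median log2 fold change of 0.43 beside −0.14 over all rows. Without overlap, 6 of 11 rows were higher (14.9% of all rows) and 1 lower (23.5%).

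The 3 P60 Saline_MG-REP libraries also differed from P60 Saline_CTRL in markers. Of the proliferation markers, 8 of 8 rose, and their summed TPM was 1193, 475 and 409 in P60 Saline_MG-REP against 16.5 to 24.8 in P60 Saline_CTRL. Gapdh, Pkm M2, Pgk1 and Aldoa NM_001177307 were highest in replicate 1, the library with the most proliferation RNA. That library also had the highest border macrophage sum of the 3 (1318 TPM). Its microglial (24949 TPM), endothelial (425 TPM) and astrocyte (479 TPM) sums were the lowest of the 3. Eno1, the other called row, was highest in replicate 2, at 5.67 TPM against 4.17 in replicate 1 and 4.16 in replicate 3. Of the microglial markers, 7 of 8 fell, with summed TPM of 24949 to 28543 against 35859 to 51828. Endothelial markers (10 rows, 3 lower) summed to 425 to 914 TPM against 1155 to 1921 TPM, border macrophage markers to 685 to 1318 against 420 to 566, and 8 of 10 immediate early genes fell. The part of these in the result was not tested. Without P60 Saline_MG-REP replicate 2, the library with neutrophil and monocyte RNA, Gapdh, Pkm M2 and Pgk1 were still called.

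The MG-REP libraries are also the Xist-high ones. With log2 Xist as a covariate, 2 of the 5 calls remained, Gapdh at 0.73 on the log2 scale (adjusted p = 0.0016, limma) and Pkm M2 with 0.85 (adjusted p = 0.00634). Pgk1, which lies on the X chromosome, was then at 0.56 (adjusted p = 0.0737), Aldoa NM_001177307 at 0.74 (adjusted p = 0.113) and Eno1 at 0.24 (adjusted p = 0.526). A fit of the compared groups alone also called 2, the same Gapdh and Pkm M2.

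**Figure D2:**
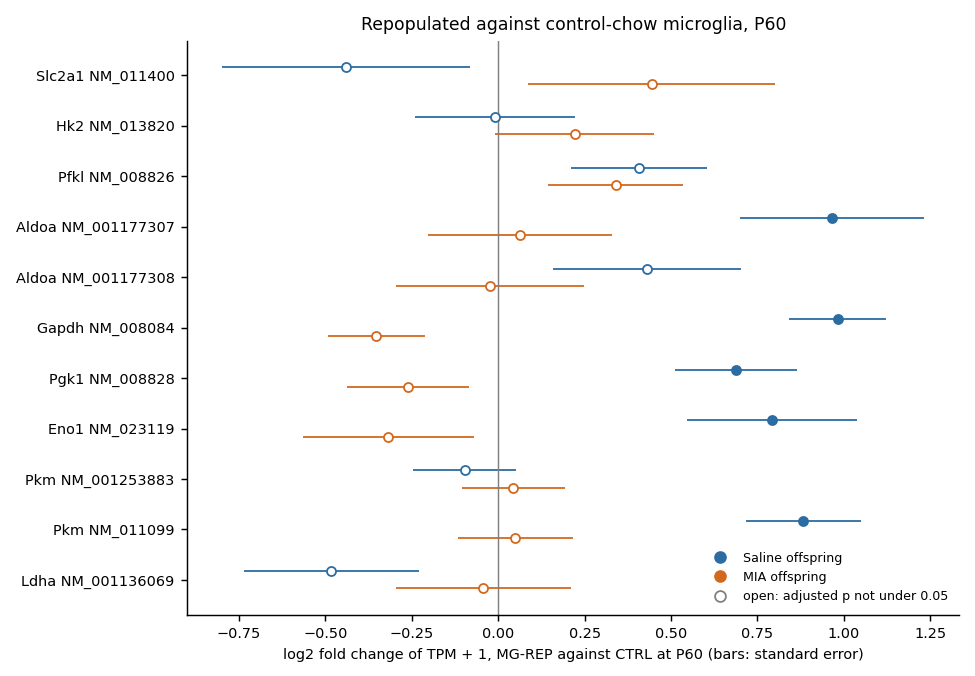
Log2 fold change of TPM + 1 between MG-REP and CTRL microglia at P60 for each of the 11 rows, separately in Saline and in MIA offspring, with bars for the standard error. Gapdh stands at 0.98 in Saline and below 0 in MIA offspring, and Pkm NM_011099, Pgk1 and Eno1 are likewise farther right in Saline offspring.

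In MIA offspring no glycolysis gene passed the test after repopulation. Of the 11 rows, 0 were called between P60 MIA_MG-REP and P60 MIA_CTRL, beside 0.555% of all rows in either direction (limma). At an unadjusted p under 0.05, 1 of 11 and 882 of all rows passed. The 1 row was Gapdh, which was at 58.0, 47.3 and 45.2 TPM in P60 MIA_CTRL and at 42.1, 33.8 and 41.3 in P60 MIA_MG-REP (adjusted p = 0.581). Pkm M2 was at 31.0, 27.1 and 22.3 TPM and at 31.5, 26.6 and 24.8 TPM, and Pgk1 at 35.5, 26.9 and 28.6 TPM and at 23.9, 19.9 and 32.8 TPM, so that the groups overlapped.

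Set directly against each other, the repopulated microglia of MIA and Saline offspring differed in 6 rows. Gapdh was at 113, 86.7 and 79.5 TPM in P60 Saline_MG-REP and at 42.1, 33.8 and 41.3 in P60 MIA_MG-REP, a 2.39-fold lower mean (log2 −1.22 ± 0.14, adjusted p = 5.85e-07, limma). Pkm M2 was at 27.6 ± 3.46 TPM (SD, n = 3) in P60 MIA_MG-REP, 1.65-fold below P60 Saline_MG-REP (log2 −0.69 ± 0.17, adjusted p = 0.00404). Pgk1 was 1.71-fold lower at 25.5 ± 6.64 TPM (log2 −0.77 ± 0.18, adjusted p = 0.00246). In all 3 rows every P60 Saline_MG-REP library lay above every P60 MIA_MG-REP library. A fit of only the groups compared gave adjusted p = 0.0522 for Pkm M2 and 0.0554 for Pgk1, which were then not called.

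The 2 low rows fell too. Eno1 was at 2.22, 1.93 and 2.05 TPM in P60 MIA_MG-REP, 2.26-fold below P60 Saline_MG-REP (log2 −0.88 ± 0.25, adjusted p = 0.012, limma). Aldoa NM_001177307 was at 2.48, 1.54 and 2.44 TPM, 2.33-fold below (log2 −0.92 ± 0.27, adjusted p = 0.0143). Eno1 was not called without P60 Saline_MG-REP replicate 2 (−0.75), and Aldoa NM_001177307 not without P60 Saline_MG-REP replicate 1 (−0.74) or P60 MIA_MG-REP replicate 2 (−0.77). Pkm M2 was not called without P60 Saline_MG-REP replicate 1 (−0.51).

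Slc2a1 went the other way. It was at 460, 741 and 633 TPM in P60 Saline_MG-REP and at 1315, 1314 and 1091 in P60 MIA_MG-REP, 2.03-fold higher and with no overlap (log2 1.04 ± 0.36, adjusted p = 0.0387, limma). The call was lost when any 1 of 5 of these 6 libraries was left out, with 0.85 to 1.13 and an adjusted p of up to 0.197, and kept without P60 Saline_MG-REP replicate 2. GLUT1 is also the main glucose carrier of the blood-brain barrier. Endothelial markers summed to 1332 to 1738 TPM in P60 MIA_MG-REP against 425 to 914 in P60 Saline_MG-REP, 4 of 10 rows were higher, and Cldn5, a tight junction gene, was at 605 TPM in the former and 268 TPM in the latter. Their part in the Slc2a1 result was not tested.

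In this comparison 5 of 11 rows fell (11% of all rows) and 1 rose (10.9%), with a median log2 fold change of −0.51 beside 0.12 over all rows. Both MG-REP groups were Xist-high, and with the Xist covariate Slc2a1 was at 1.04 (adjusted p = 0.0313). Proliferation markers summed to 18.7 to 21.6 TPM in P60 MIA_MG-REP, in the range of the CTRL groups, with 8 of 8 lower than in P60 Saline_MG-REP. Microglial markers summed to 39931 to 44466 TPM, with 5 of 8 higher. The part of these in the result was not tested.

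The test of the difference itself, the MG-REP effect in MIA minus that in Saline offspring, called 4 rows. It was −1.33 ± 0.20 on the log2 scale for Gapdh (adjusted p = 6.68e-05, limma), −0.95 ± 0.25 for Pgk1 (adjusted p = 0.0144), −0.83 ± 0.24 for Pkm M2 (adjusted p = 0.0235) and −1.11 ± 0.35 for Eno1 (adjusted p = 0.0423). Of the 11 rows 4 were lower (6.09% of all rows) and 0 higher (4.42%). The Gapdh call held under every alternative run for it. The Eno1 call was lost without 9 of the 12 libraries and the Pkm M2 call without 6 of 12 and under median-ratio scaling (−0.91, adjusted p = 0.0541), and the count fell to 1 without P60 Saline_MG-REP replicate 1 or P60 MIA_MG-REP replicate 2, and to 2 without P60 Saline_CTRL replicate 3, P60 MIA_CTRL replicate 1 or P60 MIA_MG-REP replicate 3. The 3 comparisons that involve P60 Saline_MG-REP share its libraries and are not independent.

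**Figure D3:**
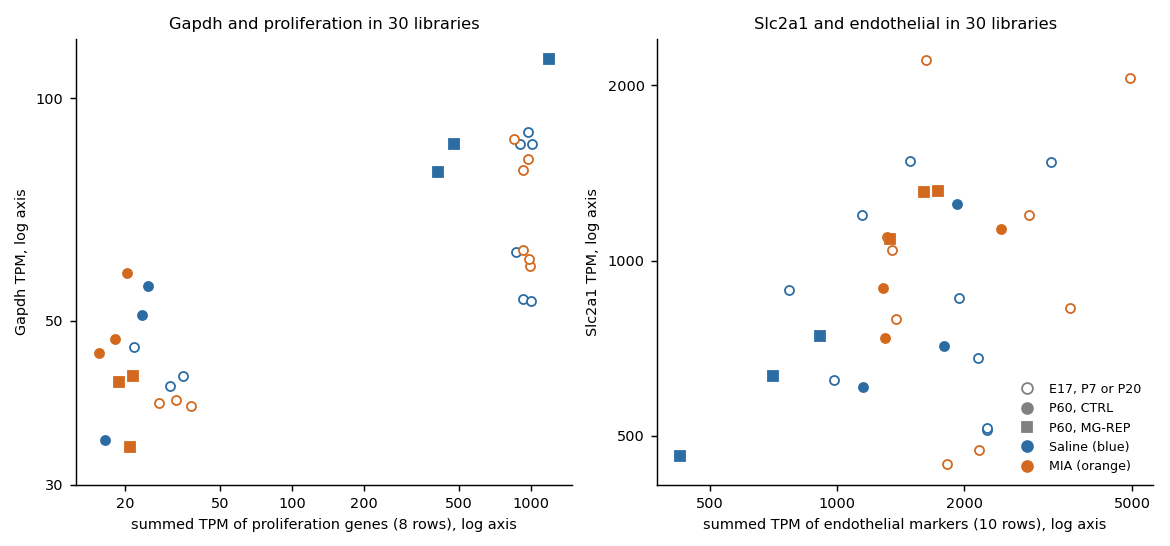
TPM of Gapdh against the summed TPM of proliferation genes (left) and of Slc2a1 against that of endothelial markers (right) in each of 30 libraries, on log axes, with open circles for E17 to P20, filled circles for P60 CTRL and squares for P60 MG-REP, blue for Saline and orange for MIA. The 3 P60 Saline_MG-REP libraries lie at 409 to 1193 TPM of proliferation markers and 79.5 to 113 TPM of Gapdh, far from the 3 P60 MIA_MG-REP libraries at 18.7 to 21.6 and 33.8 to 42.1.

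The share of M2 in the summed TPM of both Pkm rows was computed after the values were seen. The M1 row has at most 64 and the M2 row at most 427 stretches of 40 bases of its own. The share is therefore no measure of isoform abundance and is compared here between groups. It was 82.9% ± 2.69 (SD, n = 3) at E17 Saline, 83.2% at P7, 68.8% ± 7.09 at P20 and 65.2% ± 4.68 in P60 Saline_CTRL. In P60 Saline_MG-REP it was 84.7%, 77.1% and 74.7%, with a mean of 78.8% ± 5.19, whereas P60 MIA_CTRL and P60 MIA_MG-REP had 67.4% ± 1.84 and 67.5% ± 1.01. The exact two-sided permutation test of 3 libraries against 3, which can give no p below 0.1, gave p = 0.1 for P60 Saline_CTRL against E17 Saline and for Saline_MG-REP against Saline_CTRL, and p = 1 for MIA_MG-REP against MIA_CTRL.

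For 5 members the share within the isozyme family was compared. Of the summed TPM of Slc2a1, Slc2a3 and Slc2a5, the glucose carriers and the fructose carrier of microglia, Slc2a1 made up 85.0% ± 6.86 (SD, n = 3) at E17 Saline, 65.7% ± 10.2 in P60 Saline_CTRL and 84.5% ± 1.20 in P60 Saline_MG-REP. In the same libraries Slc2a5 was at 412 TPM in P60 Saline_CTRL and 85.0 TPM in P60 Saline_MG-REP. Eno1 made up 56.4%, 24.8% and 44.3% of the enolase rows in these groups, and 26.1% and 21.9% in P60 MIA_CTRL and P60 MIA_MG-REP.

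Aldoa made up 82.6% of Aldoa and Aldoc at E17 Saline and 6.56% in P60 Saline_CTRL. The other member of this pair, Aldoc, is an astrocyte marker, and astrocyte markers summed to 171 to 285 TPM at E17 Saline and 748 to 2342 TPM in P60 Saline_CTRL. Its part in the share was not tested, and the main Aldoa transcript of RefSeq (NM_007438) was not among the rows. Hk2 made up 97.5% to 98.1% of the hexokinase rows in the 3 Saline groups at E17 and P60, and Pfkl 99.0%, 95.4% and 96.7% of the phosphofructokinase rows. Over these 15 exact permutation tests no p was below 0.1, the smallest possible, and no adjusted p below 0.214.

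**Figure D4:**
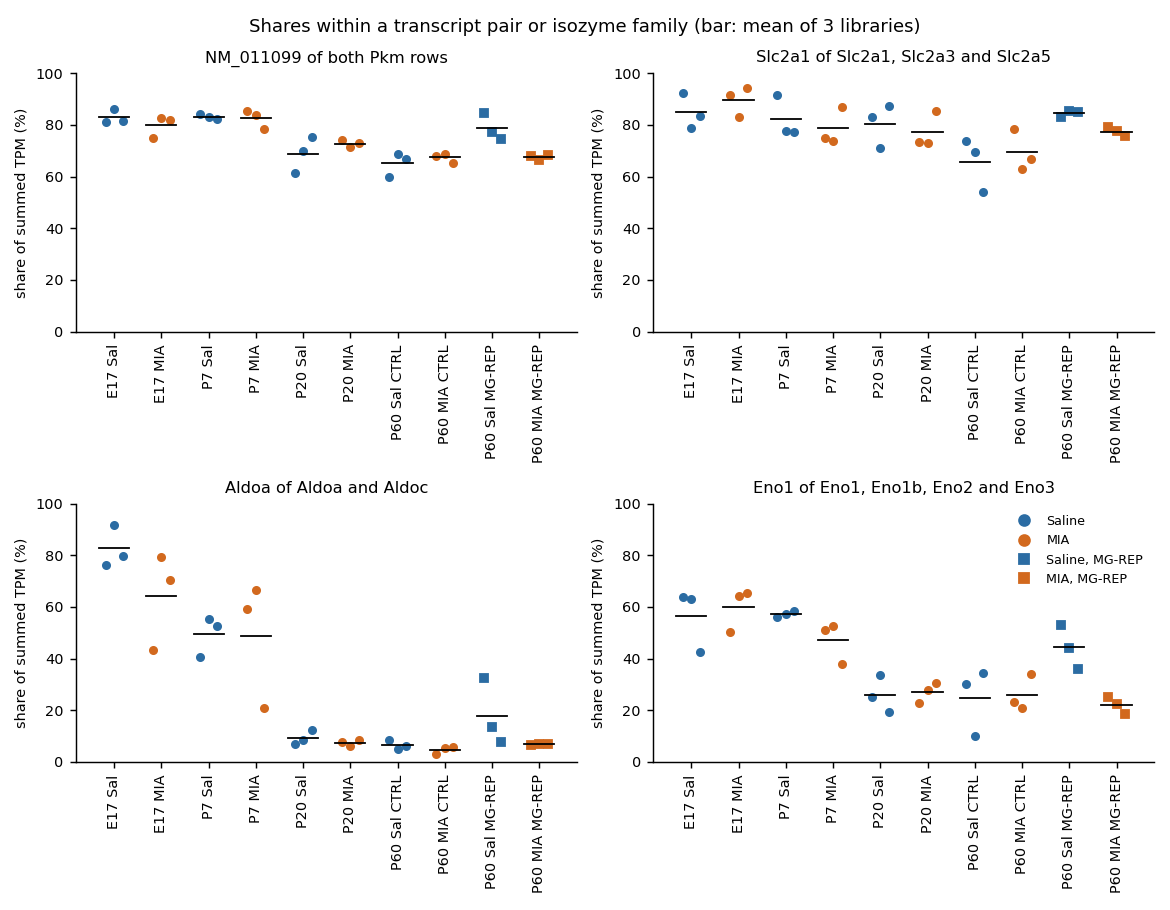
Share (%) of the summed TPM that each named row held within its transcript pair or isozyme family, in each of 30 libraries by group, with a bar at the mean of 3 libraries. The Pkm M2 share is 74.7% to 84.7% in P60 Saline_MG-REP, and the Aldoa share drops from 76.3% or more at E17 Saline to at most 8.30% in P60 Saline_CTRL.

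The rest of the pathway was read from lists drawn up by hand. Their counts stand beside 22.1% of all rows higher and 25.4% lower from E17 to P60 in Saline microglia, 11.9% and 14.9% in P60 Saline_MG-REP against P60 Saline_CTRL, and 10.9% and 11% in P60 MIA_MG-REP against P60 Saline_MG-REP. Of 21 other glycolytic enzymes, 13 had a row (15 rows). From E17 to P60 in Saline microglia, 7 of these rows rose and 5 fell. The 3 largest changes were both Aldoc rows (log2 4.35 and 1.76) and the neuronal enolase Eno2 (1.72), which are markers of astrocytes and neurons. The summed neuron markers, Eno2 among them, were at 337, 160 and 285 TPM at E17 Saline and at 128, 171 and 51.2 in P60 Saline_CTRL, with overlap. The part of neuronal RNA in the Eno2 change was not tested. Tpi1 and Pgam1, the triose phosphate isomerase and the phosphoglycerate mutase that act before and after Gapdh and Pgk1, fell by 1.61 ± 0.15 and 1.36 ± 0.14. In P60 Saline_MG-REP against P60 Saline_CTRL 3 rows rose and 1 fell, with Gpi1, glucose phosphate isomerase, up by 0.93 ± 0.12, Pgam1 up by 0.75 ± 0.14 and the muscle enolase Eno3 lower (−0.90 ± 0.34). Between the repopulated microglia of MIA and Saline offspring 0 rose and 3 fell, namely Pgam1 (−0.79 ± 0.14), Gpi1 (−0.76 ± 0.12) and Tpi1 (−0.55 ± 0.15).

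The pentose phosphate pathway, which branches off after hexokinase and makes NADPH and ribose, was also read. Of 7 genes 6 had a row. In P60 Saline_MG-REP 5 of 6 rose (11.9% of all rows) and 0 fell against P60 Saline_CTRL, with Pgd at 495 against 230 TPM (log2 1.07 ± 0.18), Tkt at 424 against 209 TPM (1.01 ± 0.12) and Taldo1 at 492 against 288 TPM (0.76 ± 0.11). In P60 MIA_MG-REP 0 rose and 5 of 6 fell (11% of all rows) against P60 Saline_MG-REP, among them Tkt (−0.97 ± 0.12), Pgd (−0.86 ± 0.18) and G6pdx (−0.76 ± 0.17), the enzyme of its first step. The median log2 fold changes were 0.73 and −0.74, beside −0.14 and 0.12 over all rows. From E17 to P60 in Saline microglia 4 of 6 fell (25.4% of all rows), with a median of −0.70.

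Transport of sugar and lactate (14 of 15 genes with a row) changed in both directions. Against P60 Saline_CTRL, 3 rose and 3 fell in P60 Saline_MG-REP. The lysosomal carrier Slc2a6 was at 13.8 against 0.940 TPM (log2 2.92 ± 0.28), the fructose carrier Slc2a5 at 85.0 against 412 TPM (−2.25 ± 0.34) and Emb, a partner of lactate carriers, at 55.7 against 13.3 TPM (1.93 ± 0.31). Between MIA and Saline repopulated microglia 2 rose and 3 fell, and the same 3 genes led with opposite signs (Slc2a6 −2.43, Slc2a5 2.04 and Emb −1.77). From E17 to P60 in Saline microglia 3 rose and 3 fell.

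Of the genes that control flux (9 of 12 with a row), 2 rose and 1 fell in P60 Saline_MG-REP. Tigar, a phosphatase that slows glycolysis, rose by 1.29 ± 0.21, and Pdk3, which inhibits pyruvate dehydrogenase, by 0.56 ± 0.11. Between MIA and Saline repopulated microglia 1 rose and 2 fell. The 7 genes of pyruvate entry into mitochondria all had a row, and 0 were called in either of these comparisons.

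Of the regulators of hypoxia-inducible factors (8 of 9 with a row) 1 rose and 1 fell in P60 Saline_MG-REP against P60 Saline_CTRL, Cited2 by 0.56 and Hif1an (−0.30), and 1 fell between MIA and Saline repopulated microglia, Cited2 (−1.17 ± 0.19). Of 20 hypoxia targets 16 had a row (17 rows), of which 3 rose and 2 fell in P60 Saline_MG-REP, with Ddit4 at −1.25 ± 0.37, Bhlhe40 at 1.24 ± 0.36 and Ero1l at 1.18 ± 0.13. The list thus had no common direction there, with a median of −0.18. From E17 to P60 in Saline microglia 3 rose and 7 fell, and Egln3, an oxygen-sensing prolyl hydroxylase, went from 30.5 to 4.94 TPM (−2.43 ± 0.26). Between MG-REP and CTRL microglia of MIA offspring 0 rows of any of these 7 lists were called.

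**Figure D5:**
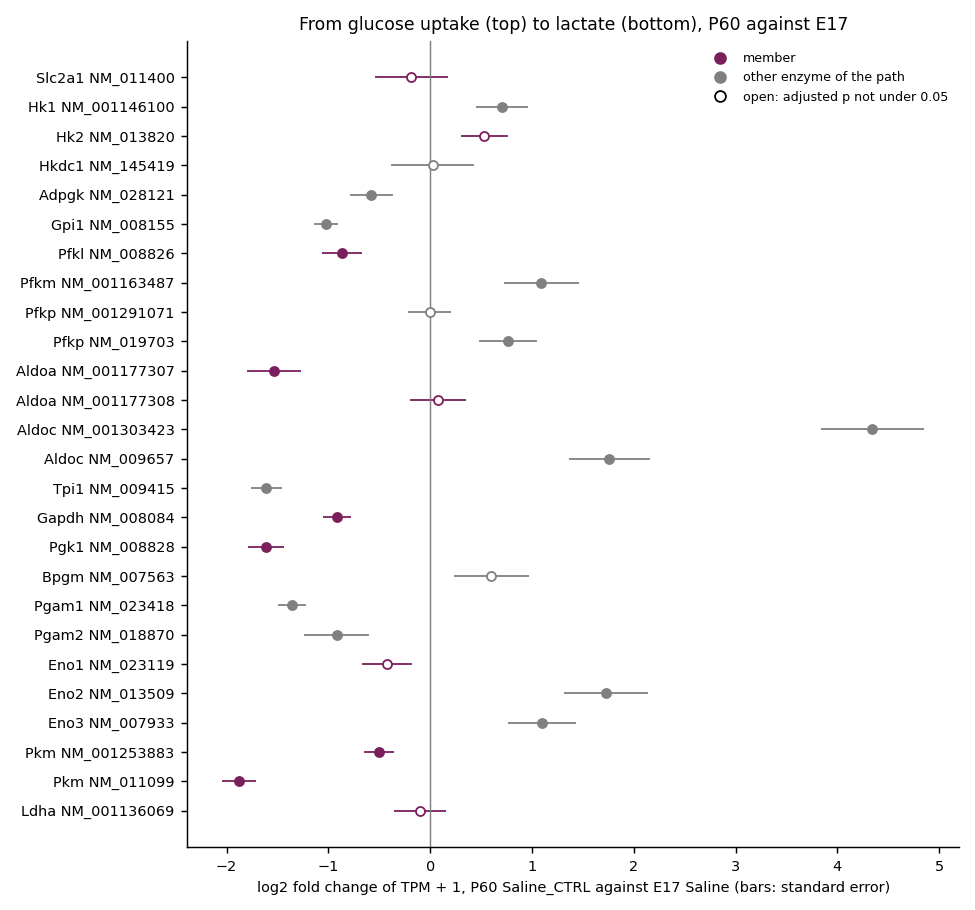
Log2 fold change of TPM + 1 between P60 Saline_CTRL and E17 Saline microglia for glycolytic rows in pathway order, with bars for the standard error. Filled points are called rows. Tpi1, Gapdh, Pgk1, Pgam1 and both Pkm rows lie left of 0, with Tpi1 and Pgk1 at −1.61, whereas both Aldoc rows, Eno2 and Eno3 lie to the right.

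The rows whose group means were most like each member's, among all rows of at least 10 TPM on average, were found by Pearson's r over the 10 group means, which is a description. Pkm M2 was closest to Mif (r = 0.991), Tcp1 (0.988) and Psmb5 (0.987), and Pgk1 to Ywhag (0.986), Pkm M2 itself (0.985) and Cope (0.984). Gapdh was closest to D8Ertd738e (0.974), Nop10 (0.973) and Dkc1 (0.965), and Aldoa NM_001177307 to Gm13315 (0.980), Pgam1 (0.977) and Ece2 (0.976). Among the members themselves, Gapdh, Pgk1, Pkm M2 and Aldoa NM_001177307 had r of 0.846 to 0.985 with each other. Eno1 reached 0.925 with Gapdh and 0.707 with Pkm M2, and Pkm M1 0.892 with Pfkl and 0.504 with Gapdh. Slc2a1 reached at most 0.555 with another member, Hk2, and Ldha at most 0.392, with a Pkm row. Hk2 was closest to 0610030E20Rik (0.979), Slc2a1 to Gatsl3 (0.907), Pfkl to Ppp1r35 (0.928) and Ldha to Zcchc8 (0.981).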

How the data were processed

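Microglia were isolated with CD11b beads, and non-stranded libraries were made from poly(A) RNA and sequenced in single reads of 40 bases. Alignment by the authors was with Rsubread against mm10 and counting with featureCounts, which used a UCSC annotation. After a CPM filter the authors deposited TPM, whose formula is not given in the sources used here, and a module name per transcript, which was not used. Because the deposited values are TPM and not counts, no count model was fitted.

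All 30 libraries were grouped by their labels. In R 4.3.3, limma 3.58.1 was fitted to log2(TPM + 1) with 10 groups in 1 model, empirical Bayes moderation with a trend, 16 two-sided contrasts and Benjamini-Hochberg adjustment over 14225 rows at 0.05. The script was tested on simulated data. Shares were compared by exact permutation tests in Python 3.11.15 with numpy 2.4.6, and figures were drawn with matplotlib 3.10.9. Promoters and gene coordinates are from RefSeq (GRCm38.p6), and transcript sequences, lengths and exons from GENCODE on the same assembly.

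The members and lists were chosen with earlier results of these data known. All members are named, with at most the 3 called genes of largest fold change per list and comparison, the isozymes, and the rows of like profile that the report gives. The others of the 3 closest rows per member are not reported here. Tpi1 (E17 to P60), Pgam1 (E17 to P60), Cldn5 and Slc2a5 levels were chosen after their values were seen.

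Alternatives were a pseudocount of 0.1, quantile normalization, median-ratio scaling, only rows averaging 1 TPM or more, and moderation without a trend. Others were the replicate number as a block, log2 Xist as a covariate and a fit of only the groups compared. Rows of 1 gene were also summed, and each library was left out. The Xist covariate was fitted over all 30 libraries and read only for the comparisons within P60. Deviations of same-numbered libraries from their group means correlated above 0.1 in all 3 pairs for P20 MIA and Saline (0.238, 0.104 and 0.132), so that the numbers may pair them, and in no other comparison.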

Additional observations from a re-analysis of the deposited data

Results flagged for a closer look

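The effect of MG-REP differed between MIA and Saline offspring for 4 rows by the test of the difference itself (MIA minus Saline, log2 scale, limma). It was −1.33 for Gapdh, −1.11 for Eno1, −0.95 for Pgk1 and −0.83 for Pkm NM_011099. In each, the P60 Saline_MG-REP libraries were the high ones. Their proliferation markers summed to 409 to 1193 TPM, beside 15.5 to 24.8 TPM in the other P60 groups, and the part of these in the differences was not tested.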

How the results depend on the processing

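No called fold change of a member reversed under any alternative, and no called gene of the pathway lists did. Under the filter on mean TPM and moderation without a trend, every called member row stayed called in the same direction. With summed rows the gene of every called member row was called in that direction. Summing leaves 1 test each for Aldoa and Pkm. A fit of only the groups compared, which has fewer degrees of freedom, called 3 members for P20 against P7 in Saline, 1 for P7 against E17 in MIA, 2 for MG-REP against CTRL in Saline and 1 for the difference between MG-REP effects. Quantile normalization called 2 for that difference. A pseudocount of 0.1, median-ratio scaling and quantile normalization each called 1 for P60 against P20 in MIA. The Xist covariate called 2 for MG-REP against CTRL in Saline.

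With each library left out, members called ranged from 5 to 6 for P7 against E17 in Saline, 3 to 5 for P20 against P7 in Saline (3 without P7 Saline replicate 1 or 2 or P20 Saline replicate 1 or 2), 6 to 7 for P60 against E17 in Saline, 2 to 4 for P7 against E17 in MIA, 5 to 5 for P20 against P7 in MIA, 6 to 8 for P60 against E17 in MIA, 3 to 5 for MIA against Saline in MG-REP (3 without P60 Saline_MG-REP replicate 1), 3 to 5 for MG-REP against CTRL in Saline (3 without P60 Saline_CTRL replicate 3) and 1 to 4 for the difference between MG-REP effects, and stayed 0 elsewhere. The cause was not tested. With the replicate block every count of called members was unchanged (6, 5, 0, 6, 4, 6, 0 and 7 between ages, 0, 0, 0, 0 and 6 for MIA against Saline, 5, 0 and 4 for MG-REP).

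Over all rows, a fit of only the groups compared called 5 in place of 499 for P60 against P20 in Saline, 10 in place of 340 for P7 against E17 in MIA and 1911 in place of 3805 for MG-REP against CTRL in Saline. Quantile normalization called 628 in place of 370 for P60 against P20 in MIA, and the Xist covariate 30 in place of 79 for MG-REP against CTRL in MIA. The share of calls that were higher moved from 71.5% to 58.2% for P7 against E17 in Saline (quantile), from 29.1% to 44.8% and 43.7% for P60 against P20 in Saline, from 36.7% to 49.2% and 49.3% for P20 against P7 in MIA, from 39.5% to 51.6% and 50% for P60 against P20 in MIA (median-ratio and quantile) and from 44.3% to 57.5% for MG-REP against CTRL in Saline (median-ratio).

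Aldoa, Eno1 and Ldha rest on an estimated 1 to 59 reads per library, which limits their precision.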
